A study of Mus musculus with 15 samples.

Results

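The comparison set 3134 mouse mammary cells exposed to 100 nM dexamethasone for 8 h against 3134 cells at 0 h. It rests on 4 of the 15 exon arrays of the series, 2 per time, chosen by the cell line and the time in the sample titles. The other 3134 arrays, 2 at 2 h and 2 at 4 h of the same dose, were used to ask which functions were reached only at 8 h. The 7 arrays of AtT-20 pituitary cells were a course of the same dose at 0, 2, 4 and 8 h, with 1 array at 8 h. They entered the normalization, the filter that chose the tested genes, and the fit for its estimate of spread. The 3134 line is 1 established line, derived by transformation of C127, which came from a mammary tumour of an RIII mouse. All 3134 cells had been kept in serum stripped of steroids before hormone was added. The labels call the 0 h cells untreated in one place and vehicle treated in another, and no array held cells kept for 8 h without hormone, so effects of dexamethasone and of time in culture cannot be told apart. The 2 arrays of each time belonged to a lower and a higher set of serial numbers in the titles, called set 1 and set 2 here, and pairs of values below are given in that order.

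Dexamethasone is a synthetic glucocorticoid. It binds the glucocorticoid receptor, which then leaves its chaperones in the cytoplasm, enters the nucleus and binds DNA, often at a palindromic response element. Bound receptor raises the transcription of some genes and lowers that of others, among them inflammatory genes driven by NF-kB and AP-1. In mammary epithelium glucocorticoids support differentiation and milk production, and in many tissues they favour the use of stored fuel over growth. Early targets include transcription factors and regulators of kinases. Later changes can be direct or can follow from the products of early targets, which these data do not separate.

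Expression was read as a log2 level per gene, the median over its exon probesets after quantile normalization of the arrays. Of 15025 genes with a value, 9919 reached log2 6.59 in some group and were tested. That level is the 40th percentile of all values. Levels under 6.59 were taken as close to background, which was not measured, so folds that start or end there may be limited by background. The number of arrays limits the precision, with a median standard error of 0.153 for a log2 difference between 8 h and 0 h. The labels do not say that the arrays of a time came from separate cultures, so p-values cover only array-to-array spread, and that spread may be purely technical. In bulk RNA, fewer cells of a type and less RNA per cell cannot be told apart. The receptor gene itself, Nr3c1, had log2 levels of 10.39 and 10.47 at 0 h and of 10.17 and 9.84 at 8 h. Its difference of -0.43 ± 0.139 (SE) did not pass (adjusted p = 0.0857).

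The cells expressed few markers of mammary epithelium. Only 2 of 14 luminal markers with a value reached log2 6.59 at 0 h, the keratin gene Krt8 (6.84 and 6.70) and the transcription factor gene Gata3 (8.38 and 8.45), while the epithelial adhesion genes Epcam (4.09 and 4.56) and Cdh1 (5.80 and 5.65) stayed below it. Of the basal markers, 2 of 9 reached it. By contrast 15 of 18 mesenchymal markers did, led by the intermediate filament gene Vim at 13.21 and 13.23. Immune markers reached it in 2 of 10 cases, endothelial in 1 of 8, adipocyte in 4 of 11 and corticotroph in 0 of 11. The mean level over the mesenchymal markers was 8.82 and 8.88 at 0 h and 8.84 and 8.83 at 8 h, and that over the luminal markers was 5.28 and 5.23, then 5.32 and 5.54.

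At 8 h, 427 genes were higher (4.3% of those tested) and 357 lower (3.6%) than at 0 h, by limma with the serial set as a block. Among the 784 called genes, 0 had sets that moved in opposite directions. In 52 of the 784 the levels at 0 h and at 8 h both lay under the level required by the filter. Those genes were tested because another group reached it, and their changes lie close to background. Rises were larger than falls: 142 of the higher genes rose at least 2-fold and 38 at least 4-fold, against 46 and 3 of the lower ones. Called genes at 2 h numbered 194 higher (1.96%) and 104 lower (1.05%), and at 4 h 326 higher (3.29%) and 189 lower (1.91%). All these comparisons share the 0 h arrays. Without the block, 163 genes were higher at 8 h (1.64%) and 54 lower (0.544%), and all 217 of these were among the 784. On the deposited scale, where the median over all genes lay at -0.37, the split was 126 higher and 1037 lower, so directions below are relative to the other genes on the array. Leaving out either 0 h array or either 8 h array left 186 to 277 higher genes, and without 8 h replicate 2 or either 0 h replicate 86 to 162 were lower.

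**Figure D1:**
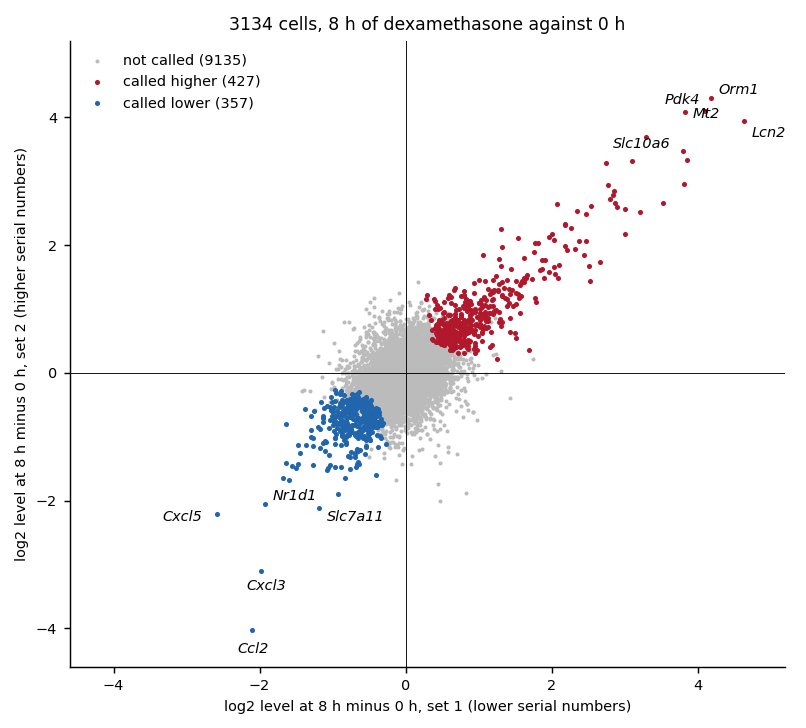
Each point is 1 of 9919 tested genes in 3134 cells, with the log2 level at 8 h minus 0 h of dexamethasone in set 1 on the x axis and in set 2 on the y axis; red points were called higher (427) and blue points lower (357). All called genes lie in the quadrant where both sets moved the same way, and the rises reach further than the falls.

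The largest rise was that of Lcn2, which encodes an iron-siderophore binding protein of innate defence. Its log2 levels were 7.61 and 8.06 at 0 h and 12.25 and 12.00 at 8 h, a difference of 4.29 ± 0.252 or 19.5-fold (adjusted p = 6.53e-07). The acute phase glycoprotein gene Orm1 went from 6.71 and 6.15 to 10.90 and 10.46 (4.25 ± 0.219, adjusted p = 2.61e-07). Both 8 h arrays lay far above both 0 h arrays for these genes, and all 8 probesets of Lcn2 and all 7 of Orm1 were higher in both sets. Pdk4, a kinase that shuts off pyruvate dehydrogenase and so spares glucose, went from 6.35 and 6.62 to 10.44 and 10.72 (4.10 ± 0.138, adjusted p = 1.18e-08). The metal binding protein gene Mt2 went from 7.84 and 7.16 to 11.68 and 11.25 (3.96 ± 0.18, adjusted p = 1.35e-07). Neither gene had overlapping times.

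The other 11 of the 15 largest rises were between log2 2.81 and 3.63. Slc10a6, a transporter of sulphated steroids and bile acids, started near background at 4.39 and 4.69 and reached 8.18 and 8.17 (3.63 ± 0.173). Fam107a, an actin binding protein gene, went from 5.67 and 5.93 to 9.52 and 9.26 (3.59 ± 0.18). Tns1, which links integrins to actin, went from 7.97 and 7.64 to 11.25 and 11.33 (3.49 ± 0.183). The group also held Lbp and Orm2 of the acute phase, the selenium binding protein gene Selenbp1, the leucine zipper repressor gene Tsc22d3, the protease inhibitor gene Ctla2a, the arrestin family gene Arrdc2, the vasoconstrictor gene Edn1 and Fkbp5, a co-chaperone that lowers hormone binding by the receptor. Fkbp5 went from 9.68 and 9.62 to 12.52 and 12.40 (2.81 ± 0.139, adjusted p = 2.15e-07). In these 15 genes no 8 h array lay as low as a 0 h array.

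**Figure D2:**
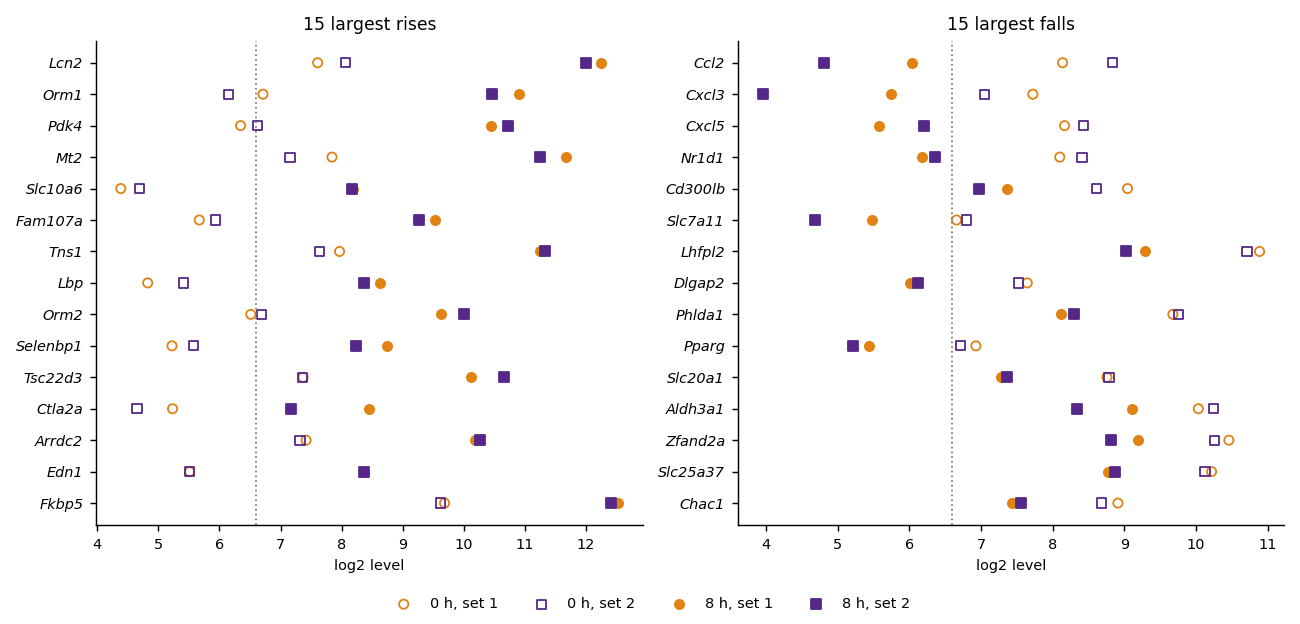
Log2 levels of the 15 genes with the largest rise (left) and the largest fall (right) at 8 h in 3134 cells; open symbols are 0 h and filled symbols 8 h arrays, circles set 1 and squares set 2, and the dotted line marks log2 6.59. The filled symbols stand apart from the open ones in each gene, from Lcn2 at 7.61 and 8.06 rising to 12.25 and 12.00 down to Ccl2 at 8.14 and 8.84 falling to 6.03 and 4.81.

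Promoters of these genes were searched for the receptor's palindromic response element, spelled GNACANNNTGTNC, which reads the same on both strands. The window ran from 250 bases before to 50 after the start of each gene in RefSeq (GRCm38.p6), and 8078 of the tested genes had one. The element was present in 31 of these 8078 promoters (0.384%), in 11 of 345 promoters of genes higher at 8 h (3.19%) and in 0 of 280 of genes lower at 8 h. The sequences below are shown because they belong to strong risers with different roles, with the element in capitals: a transporter gene, the kinase gene Sgk1, which regulates sodium channels and cell survival, and the metal binding protein gene Mt1.
Slc10a6, chr5:103629530-103629590, minus strand: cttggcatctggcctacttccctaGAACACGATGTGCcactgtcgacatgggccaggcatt
Sgk1, chr10:21993678-21993738, plus strand: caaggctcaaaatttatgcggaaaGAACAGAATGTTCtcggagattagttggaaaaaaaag
Mt1, chr8:94178971-94179031, plus strand: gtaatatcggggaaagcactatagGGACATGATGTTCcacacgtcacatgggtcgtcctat
The element began 163 bases before the start in Slc10a6, 188 in Sgk1 and 94 in Mt1. Sgk1 went from 7.99 and 8.34 to 10.46 and 10.40 (2.27 ± 0.176), and Mt1 from 11.37 and 10.67 to 12.90 and 12.79 (1.82 ± 0.172). The letters also stood in the promoters of Fam107a and of Serpina3n, an acute phase protease inhibitor gene. A match of letters is a description, not a binding site, and a promoter without them says nothing of elements elsewhere.

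The 3 largest falls were those of chemokine genes. Ccl2, which attracts monocytes, had log2 levels of 8.14 and 8.84 at 0 h and of 6.03 and 4.81 at 8 h (-3.07 ± 0.503, adjusted p = 0.00273). Cxcl3 and Cxcl5, which attract neutrophils, followed: Cxcl3 went from 7.72 and 7.05 to 5.74 and 3.95 (-2.54 ± 0.239, adjusted p = 3.51e-05). Cxcl5 went from 8.17 and 8.42 to 5.58 and 6.21 (-2.40 ± 0.189, adjusted p = 7.33e-06). All 3 genes ended below log2 6.59, so their falls may be limited by background. The call of Cxcl3 was lost without the block (adjusted p = 0.0668). Of the 10 tested members of the list, 9 were lower and 1 was higher at 8 h, Il34, with a list median of -0.88 against -0.01 over all tested genes. The counts were 5 lower at 2 h and 9 lower at 4 h. Without the block 2 members were lower at 8 h. Smaller falls were those of the homing chemokine gene Cxcl12 (10.39 and 10.23 to 9.13 and 9.21) and of the alarmin gene Il33 (8.94 and 8.83 to 8.26 and 8.07).

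Among the other large falls, Cd300lb, a receptor gene of myeloid cells, went from 9.04 and 8.61 to 7.37 and 6.97 (-1.66 ± 0.155). Pparg, the nuclear receptor that drives fat cell differentiation, went from 6.93 and 6.71 to 5.43 and 5.21 (-1.50 ± 0.164). Slc20a1, a phosphate carrier, went from 8.76 and 8.79 to 7.28 and 7.36 (-1.45 ± 0.19). In each of these the times did not overlap. Of 32 tested genes of NF-kB and cytokine signalling, 4 were lower at 8 h and 0 higher, with a median of 0.03; Traf1, Rel, Nfkbie and Nfkb2 were those 4, with differences between -0.83 and -0.48, and none of these calls held without the block (adjusted p 0.0886 to 0.26).

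The question particular to this time was which changes were reached only by 8 h. A call at 8 h without one at 2 h or 4 h is not enough for this, although 161 of the higher and 237 of the lower genes were of that kind. The times were therefore compared directly. Against 2 h, 114 genes were higher at 8 h (1.15%) and 84 lower (0.847%). Against 4 h, 7 were higher (0.0706%) and 4 lower (0.0403%), with 1016 genes at an unadjusted p under 0.05. A gene was called late if it was called at 8 h against 0 h, differed the same way from the mean of 2 h and 4 h, and was not called at 2 h or 4 h. There were 26 late risers (0.262%) and 49 late fallers (0.494%). Some in each direction lay under the level required by the filter at both 0 h and 8 h. The riser En2 was one, at 4.69 and 4.78 at 0 h and 5.62 and 5.40 at 8 h. Leaving out any 1 of the 8 arrays of 3134 left 2 to 13 late risers and 3 to 23 late fallers, and without the block there were 0 and 2. Of the 26 late risers 9, and of the 49 late fallers 17, were called at 8 h against 0 h without the block. The late genes are therefore given with the value of every array.

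Nr1d1, which encodes the clock repressor REV-ERB alpha, had the firmest late change. Its log2 levels were 8.10 and 8.41 at 0 h, 7.44 and 8.04 at 2 h, 7.65 and 8.22 at 4 h, then 6.18 and 6.36 at 8 h. The 8 h arrays lay below all 6 others, and 9 of its 9 probesets were lower than at 0 h in both sets. The difference from 0 h was -1.99 ± 0.152 (adjusted p = 6.03e-06), and that from the mean of 2 h and 4 h was -1.57 ± 0.13 (adjusted p = 0.000477). It was also lower at 8 h than at 2 h alone (adjusted p = 0.000777) and than at 4 h alone (adjusted p = 0.00122). Slc7a11, the cystine importer, had the largest late difference, -1.72 ± 0.19 from the mean of 2 h and 4 h (adjusted p = 0.00313). Its levels were 6.66 and 6.80 at 0 h, 7.20 and 7.34 at 2 h, 6.11 and 6.54 at 4 h, then 5.48 and 4.68 at 8 h, so both 8 h arrays lay below all others and under the background level.

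**Figure D3:**
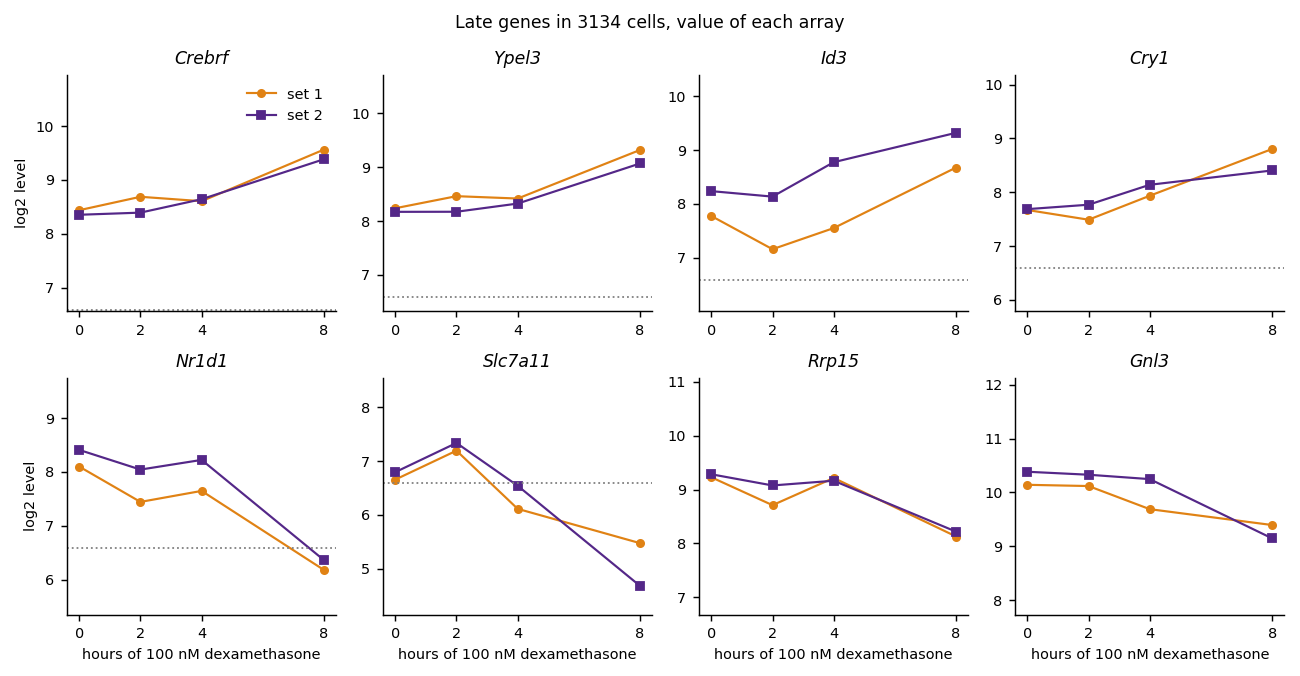
Log2 level of 8 late genes on each 3134 array against hours of dexamethasone, circles for set 1 and squares for set 2, with log2 6.59 dotted where it is in range; every panel spans the same number of log2 units. Crebrf, Ypel3, Id3 and Cry1 end at their highest value and Nr1d1, Slc7a11, Rrp15 and Gnl3 at their lowest, while the values at 2 h and 4 h lie near those at 0 h in most panels.

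The late risers did not share one listed pathway. Crebrf, a regulator that promotes the turnover of the stress factor CREB3, was at 8.44 and 8.35 at 0 h, 8.69 and 8.39 at 2 h, 8.61 and 8.64 at 4 h, then 9.57 and 9.39 at 8 h. Ypel3, a growth suppressing gene, was at 8.24 and 8.17, then 8.46 and 8.17, then 8.42 and 8.33, and at 8 h 9.32 and 9.07. Both 8 h arrays of each gene lay above the other 6. Crebrf rose by 1.08 ± 0.133 over 0 h (adjusted p = 0.000339) and Ypel3 by 0.99 ± 0.127 (adjusted p = 0.000444). Both were also higher than at 4 h alone (adjusted p = 0.0479 for each). Id3, an inhibitor of basic helix-loop-helix factors and a target of BMP signalling, had the largest late rise, 1.09 ± 0.16 over the mean of 2 h and 4 h. Its values split by set, with 7.77 and 8.24 at 0 h, 7.16 and 8.13 at 2 h, 7.55 and 8.77 at 4 h, then 8.68 and 9.32 at 8 h, so that set 1 at 8 h lay below set 2 at 4 h. Its call at 8 h against 0 h rested on the block (adjusted p = 0.00553 with it and 0.798 without).

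Other late risers had roles in signalling, transport and differentiation. Arrb1, the scaffold beta-arrestin, went from 7.06 and 6.58 at 0 h to 7.85 and 7.59 at 8 h, with 6.67 to 7.21 over the 4 arrays between. Porcn, which fats Wnt proteins for secretion, went from 7.17 and 6.82 to 8.03 and 7.95, with 7.00 to 7.44 between. Dusp6, a phosphatase that inactivates ERK, went from 8.84 and 9.01 to 9.73 and 10.13, with 9.18 to 9.35 between. In these 3 genes both 8 h arrays lay above the other 6. Dhrs3, which reduces retinal, rose by 0.75 ± 0.142, the copper transporter gene Slc31a2 by 0.66 ± 0.184 and the Rab exchange factor gene Rab3il1 by 1.04 ± 0.161. Tinagl1, a matrix protein gene, rose by 0.60 ± 0.143 and was the 1 late riser of 20 with a promoter whose promoter held the receptor element (5%). Without the block the calls of Arrb1, Dusp6, Dhrs3, Slc31a2 and Tinagl1 were lost (adjusted p 0.129 to 0.447).

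Late fallers included many genes that make ribosomes. Ribosome production starts with transcription of the large precursor RNA by RNA polymerase I in the nucleolus, goes on with guided modification and cleavage of that RNA, and ends with assembly and export of the subunits. It takes up much of the biosynthetic effort of a growing cell. Of the 32 tested genes on the ribosome biogenesis list, 16 were lower at 8 h and 0 higher, and the list median was -0.53 against -0.01 over all tested genes. No member was called in either direction at 2 h or at 4 h, when the list medians were -0.04 and -0.10. The sets differed there, with medians of -0.18 and 0.06 at 2 h and of -0.19 and 0.01 at 4 h. Against 2 h directly, 7 members were lower at 8 h, and against 4 h directly 0 were. Late fallers numbered 10. By set, the 8 h median was -0.62 and -0.44, and 27 of the 32 members were lower in both sets, where 34.6% of all tested genes were. In AtT-20 the median at 8 h against 0 h within set 1 was 0.01 on 1 array, and the difference between the lines was not tested.

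**Figure D4:**
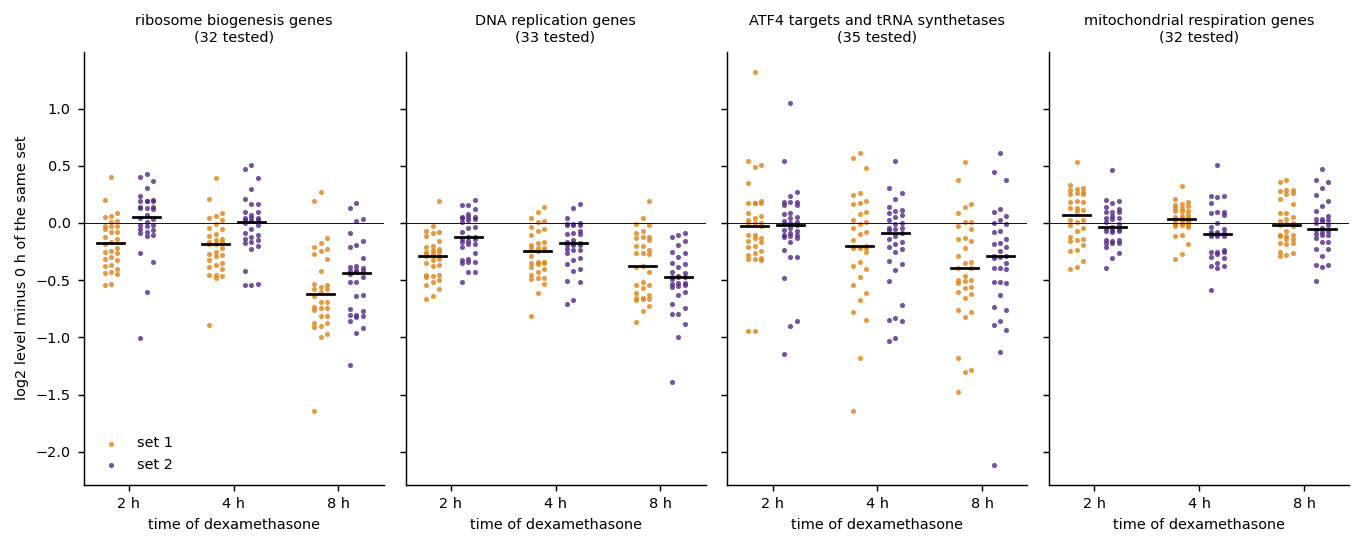
Log2 level minus that at 0 h of the same set for every tested member of 4 gene lists in 3134 cells at 2, 4 and 8 h, orange for set 1 and purple for set 2, with black bars at the medians. The ribosome biogenesis members shift to medians of -0.62 and -0.44 at 8 h, the DNA replication medians lie below 0 from 2 h on, and the mitochondrial respiration members, with 0 called at any time, stay around 0.

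The members that fell covered several steps of the process. For polymerase I, the subunit gene Polr1b was at 8.22 and 8.28 at 0 h and at 7.22 and 7.46 at 8 h (-0.91 ± 0.152, adjusted p = 0.00308), with 7.69 to 8.17 on the 4 arrays between. For modification of the precursor, Nop56, of the particles that add methyl groups, went from a mean of 11.03 ± 0.042 (SD, n = 2) to 10.19 and 10.15 (-0.86 ± 0.134, adjusted p = 0.00188), with 10.69 to 10.98 between. Both 8 h arrays of each gene lay below all others. Gar1, of the particles that make pseudouridine, went from 8.37 and 9.41 to 6.73 and 8.61 (-1.22 ± 0.208), but its sets overlapped across times and its call was lost without the block (adjusted p = 0.482). Nop58, the partner of Nop56, fell by 0.81 ± 0.14 and was not called without the block (adjusted p = 0.064). For assembly, Utp15 fell by 0.83 ± 0.147 and Utp20 by 0.78 ± 0.132, both parts of the small subunit processome. The call of Utp20 was lost without the block (adjusted p = 0.127).

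Gnl3, the nucleolar protein nucleostemin, was at 10.14 and 10.38 at 0 h, 10.12 and 10.33 at 2 h, 9.69 and 10.25 at 4 h, then 9.39 and 9.15 at 8 h. Rrp12, needed for export of both subunits, went from 8.34 and 8.26 to 7.43 and 7.63, with 7.90 to 8.63 between. Rrp15, a large subunit factor outside the list, was at 9.23 and 9.29 at 0 h, 8.71 and 9.08 at 2 h, 9.22 and 9.17 at 4 h, then 8.13 and 8.22 at 8 h. In all 3 genes both 8 h arrays lay below the other 6. Rrp15 was lower at 8 h than at 2 h (adjusted p = 0.0203) and than at 4 h (adjusted p = 0.0403). Without the block it stayed called against 0 h (adjusted p = 0.00629), but not against the mean of 2 h and 4 h (adjusted p = 0.124). Further late fallers outside the list with known roles there were Nhp2, the partner of Gar1 (-0.85 ± 0.174), Grwd1 (-0.88 ± 0.175), Pum3 (-0.67 ± 0.16) and Ltv1, an export factor of the small subunit (-0.76 ± 0.136). Without the block the calls of Gnl3 and Rrp12 were lost (adjusted p = 0.0551 and 0.147), as were those of Grwd1, Pum3 and Ltv1 (adjusted p = 0.0833, 0.114 and 0.199). Myc, a list member and activator of such genes, was at 10.97 and 11.07 at 0 h and 10.70 and 10.56 at 8 h and did not pass (-0.39 ± 0.154, adjusted p = 0.154). Without the block 3 list members were lower, and leaving out either 8 h array or either 0 h array left 3 to 10.

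Factors such as MYC, CLOCK with BMAL1, and USF bind the E-box CACGTG, which reads the same on both strands. In the promoter windows above, 981 of 8078 tested genes held it (12.1%), against 6 of 27 on the ribosome biogenesis list (22.2%), 10 of 43 late fallers (23.3%) and 5 of 20 late risers (25%). Not all ribosome biogenesis members with it were called at 8 h. Over all called genes the shares were 35 of 345 higher (10.1%) and 45 of 280 lower (16.1%). The late risers with it were Atoh8, Crebrf, Cry1, Rab3il1 and Slc31a2. An example of each direction is shown with the E-box in capitals, for a clock gene, for the late riser Crebrf, whose promoter held it at 2 places, and for Nop2, a methyltransferase of ribosomal RNA.
Cry1, chr10:85185085-85185138, minus strand: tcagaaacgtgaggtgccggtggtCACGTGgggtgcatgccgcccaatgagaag
Crebrf, chr17:26715501-26715554, plus strand: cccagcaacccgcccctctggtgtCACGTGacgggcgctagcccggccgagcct
Nop2, chr6:125131799-125131852, plus strand: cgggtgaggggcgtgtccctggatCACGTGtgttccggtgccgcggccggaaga
The E-box began 60 bases before the start in Cry1 and in Nop2, and 125 and 14 bases before it in Crebrf. Nop2 was at 8.16 and 8.49 at 0 h and 7.19 and 8.05 at 8 h (-0.71 ± 0.168), a call lost without the block (adjusted p = 0.36). No factor's binding was measured here.

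The clock itself moved in both directions. In the mammalian clock, CLOCK and BMAL1 activate Per, Cry and Nr1d genes, whose products feed back on them. Of 19 tested clock genes, 7 were higher and 3 lower at 8 h, against 5 higher and 0 lower at both 2 h and 4 h. Per1, a direct receptor target in many tissues, was at 7.22 and 7.41 at 0 h, 9.93 and 10.08 at 2 h, 9.86 and 9.91 at 4 h, then 9.60 and 9.47 at 8 h (2.22 ± 0.131, adjusted p = 6.53e-07). Per2 was at 6.86 and 7.16 at 0 h, 7.50 and 7.77 at 2 h, 8.14 and 8.06 at 4 h, then 8.12 and 8.44 at 8 h (1.27 ± 0.14). Cry1, a late riser, was at 7.67 and 7.69 at 0 h, 7.49 and 7.77 at 2 h, 7.94 and 8.14 at 4 h, then 8.80 and 8.41 at 8 h. The rise of Per1 was thus in place by 2 h, while Cry1 had both 8 h arrays above the other 6 (0.93 ± 0.17 over 0 h, adjusted p = 0.0054).

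Nfil3, a repressor of clock output genes, was at 8.56 and 8.70 at 0 h, 11.28 and 11.40 at 2 h, then 10.33 and 10.74 at 8 h, and was lower at 8 h than at 2 h (adjusted p = 0.00889). Nr1d2, the paralogue of Nr1d1, was a late faller, at 9.49 and 9.85 at 0 h and 8.53 and 9.16 at 8 h, with 9.41 to 9.80 between (-0.83 ± 0.187, adjusted p = 0.0184 with the block and 0.113 without). Per3 was lower too and went from 7.19 and 7.45 to 6.78 and 6.75 (-0.56 ± 0.144, adjusted p = 0.0349 with the block and 0.231 without). Arntl, which encodes BMAL1, went from 8.64 and 7.99 to 9.25 and 8.74 and had both 8 h arrays above the other 6 (0.69 ± 0.149, adjusted p = 0.0151 with the block and 0.266 without). Per3 and Arntl were named after their values were seen.

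Genes of amino acid supply fell in part. ATF4 is the transcription factor of the amino acid response and drives amino acid transporters, synthetic enzymes and the enzymes that load transfer RNA. Of 35 tested genes on this list, 12 were lower and 1 higher at 8 h, with a median of -0.32. The counts were 2 lower and 1 higher at 2 h, and 6 lower and 1 higher at 4 h. Compared directly, 5 members were lower at 8 h than at 2 h and 0 than at 4 h. The falls were largest for Slc7a11, given above, and for Chac1, which degrades glutathione, at 8.91 and 8.68 at 0 h and 7.43 and 7.56 at 8 h (-1.30 ± 0.161, adjusted p = 0.000354). Chac1 had already reached 7.97 and 7.83 at 2 h. Slc7a1, the arginine and lysine importer, was at 11.06 and 10.82 at 0 h, 10.85 and 10.82 at 2 h, 10.28 and 10.40 at 4 h, then 9.77 and 9.92 at 8 h (-1.09 ± 0.146, adjusted p = 0.000626).

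Both 8 h arrays of Slc7a1 lay below the other 6, and it was lower than at 2 h (adjusted p = 0.00474). Atf5, a target and relative of ATF4, was a late faller, from 8.70 and 8.75 to 8.05 and 7.82 with 8.39 to 9.05 between (-0.80 ± 0.158; adjusted p = 0.086 without the block). The glycine carrier gene Slc6a9 fell by 0.65 ± 0.126, and the cysteine loading enzyme gene Cars by 0.63 ± 0.131. The gene of the factor, Atf4, named after its values were seen, went from 11.37 and 11.17 to 10.59 and 10.54 (-0.70 ± 0.177, adjusted p = 0.0302 with the block and 0.387 without). Without the block 4 members of the list were lower. Leaving out either 8 h array or either 0 h array left 3 to 6. The 1 higher member was Cebpb, a factor also induced by glucocorticoids. Of 19 amino acid enzymes 2 were higher, led by the glutamine synthetase gene Glul, from 9.41 and 9.44 to 12.20 and 12.16 (2.76 ± 0.121), and 1 was lower, Aldh18a1 of proline synthesis, a late faller (-0.66).

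DNA replication genes were lower as well, with smaller differences. Of 33 tested members, 12 were lower and 0 higher at 8 h, with a median of -0.43, and 31 were lower in both sets. The counts were 0 at 2 h and 1 lower at 4 h, but the medians already stood at -0.22 at both times, 0 members were called between 8 h and 2 h, and 1 was a late faller. Mcm3, of the replicative helicase, was that gene, at 10.00 and 10.42 at 0 h and 9.13 and 9.68 at 8 h (-0.80 ± 0.144, adjusted p = 0.00477). Its times overlapped on the arrays between, which ran from 9.54 to 10.35. Cdc6, which loads the helicase, went from 9.06 and 9.70 to 8.41 and 8.31 (-1.02 ± 0.221, adjusted p = 0.0142). The clamp loader gene Rfc3 fell by 0.71 ± 0.145 and the licensing factor gene Cdt1 by 0.64 ± 0.131. These calls rested on the block: without it 0 of the 12 were called, and leaving out either 8 h array or either 0 h array left 0 to 6.

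Mitosis genes did not follow. Of 29 tested members 1 was lower at 8 h, the proliferation marker Mki67, from 10.56 and 10.58 to 9.75 and 10.15 (-0.62 ± 0.169, adjusted p = 0.0442 with the block and 0.298 without), and the median was 0.01. Of 27 tested CDK inhibitors and growth arrest genes, 7 were higher and 1 lower at 8 h, with a median of 0.11. Already at 2 h 4 were higher and 3 lower, and at 4 h 7 and 4, and 0 members were late risers. Mxd4, a MYC antagonist, was at 8.80 and 8.31 at 0 h, 9.13 and 8.61 at 2 h, 9.75 and 8.82 at 4 h, then 10.12 and 9.74 at 8 h (1.37 ± 0.146, adjusted p = 9.59e-05). It was higher at 8 h than at 2 h (adjusted p = 0.0039). Ccng2, a cyclin that marks arrested cells, was at 8.80 and 9.07 at 0 h, 9.49 and 9.28 at 2 h, 9.80 and 9.72 at 4 h, then 10.13 and 10.27 at 8 h (1.26 ± 0.169). The 8 h arrays of Ccng2 lay above all others. Cdkn1a, the CDK inhibitor p21, was highest at 2 h (11.67 and 11.17, from 9.82 and 9.88) and stood at 10.61 and 10.71 at 8 h (0.81 ± 0.163, adjusted p = 0.00935). The member that fell was the cyclin gene Ccnd2, at 9.75 and 9.50, then 8.75 and 8.91 (adjusted p = 0.0462 with the block and 0.388 without).

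Genes of autophagy, lysosomes and the FoxO factors rose in part. FoxO factors are held out of the nucleus by insulin signalling and drive genes of catabolism. Of 33 tested members, 10 were higher and 0 lower at 8 h, against 4 and 0 at both 2 h and 4 h, and the median was 0.13. On the deposited scale the median was -0.22, which is above that of all genes there (-0.37), and 2 members were higher. Sesn1, which restrains the growth kinase mTORC1, went from 7.81 and 7.81 at 0 h to 9.57 and 9.57 at 2 h and 9.78 and 9.93 at 8 h (2.04 ± 0.146, adjusted p = 3.55e-06). Klf15, a factor of amino acid breakdown, went from 5.78 and 6.27 to 8.31 and 7.71 (1.99 ± 0.223). Gabarapl1, which coats autophagosomes, went from 9.07 and 9.36 to 10.03 and 10.13 (0.86 ± 0.137), and had reached 10.01 and 9.87 at 2 h.

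The 1 late riser of that list was Sesn3, a relative of Sesn1, at 8.41 and 8.50 at 0 h, 8.72 and 8.51 at 2 h, 8.48 and 8.47 at 4 h, then 9.17 and 9.00 at 8 h. Its rise of 0.63 ± 0.139 was not called without the block (adjusted p = 0.0671). Foxo3 itself went from 10.07 and 9.94 to 10.76 and 10.93 (0.84 ± 0.137, adjusted p = 0.00274). Pik3ip1, an inhibitor of the insulin signalling kinase PI3K and a late riser outside the list, was at 8.27 and 7.92 at 0 h and 8.93 and 9.23 at 8 h, with 8.16 to 8.76 between. Both 8 h arrays lay above the other 6 (0.98 ± 0.162, adjusted p = 0.00292). Lysosomal enzymes were on the list but 0 of them were among the called members. Without the block 4 of the list were higher, and leaving out 8 h replicate 2 or either 0 h array left 3 to 4.

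Acute phase proteins are made by the liver in inflammation, and their genes are common glucocorticoid targets. Of 22 members with a value 11 were tested, those that reached the level required by the filter in some group. Of these 11, 5 lay below that level at 0 h, so the count higher and the median may depend partly on the filter. Of the 11 tested members 6 were higher and 0 lower at 8 h, with a median of 1.45. The counts were 4 higher at 2 h and 6 at 4 h, and 3 were higher at 8 h than at 2 h and 0 than at 4 h. By set, the median was 0.89 and 1.11 at 4 h and 1.59 and 1.11 at 8 h. Lbp, which binds bacterial lipopolysaccharide, was at 4.83 and 5.41 at 0 h, 7.03 and 6.92 at 2 h, 7.89 and 7.88 at 4 h, then 8.63 and 8.37 at 8 h, and it was higher at 8 h than at 2 h (adjusted p = 0.0022). Hp, which binds free haemoglobin, was at 5.63 and 4.95 at 0 h, 5.87 and 4.91 at 2 h, 6.52 and 6.06 at 4 h, then 7.41 and 6.06 at 8 h. It too was higher than at 2 h (adjusted p = 0.00391), though set 2 did not move between 4 h and 8 h, and its call against 0 h was lost without the block (adjusted p = 0.154). Serpina3n went from 5.86 and 5.78 to 7.44 and 7.18 (1.49 ± 0.251). The complement gene C3 (10.18 and 10.28, then 9.77 and 10.06) did not pass.

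The listed glucocorticoid-induced genes, most of them known from other tissues, gave 20 higher and 1 lower of 23 tested at 8 h, with a median of 2.04. The group median stayed close to this at the earlier times, 2.06 at 2 h and 2.12 at 4 h, with 20 and 19 higher. Gene by gene, the median difference between 8 h and 2 h was 0.15, against -0.0036 over all tested genes. In that direct comparison 4 members were higher and 1 lower at 8 h, where 1.15% and 0.847% of all tested genes were. The 1 lower was Angptl4, an inhibitor of lipoprotein lipase, from 7.87 and 7.78 to 7.36 and 6.79 (-0.75 ± 0.171; adjusted p = 0.255 without the block). Pdk4 and Fam107a of the list, and Tns1 and Slc10a6 outside it, went on rising, each higher at 8 h than at 2 h (adjusted p from 0.000777 to 0.00391). Rgs2, a brake on G protein signalling, went the other way, at 6.89 and 6.53 at 0 h, 9.89 and 9.32 at 2 h, 9.41 and 9.17 at 4 h, then 8.76 and 8.15 at 8 h, and was lower at 8 h than at 2 h (adjusted p = 0.00283).

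**Figure D5:**
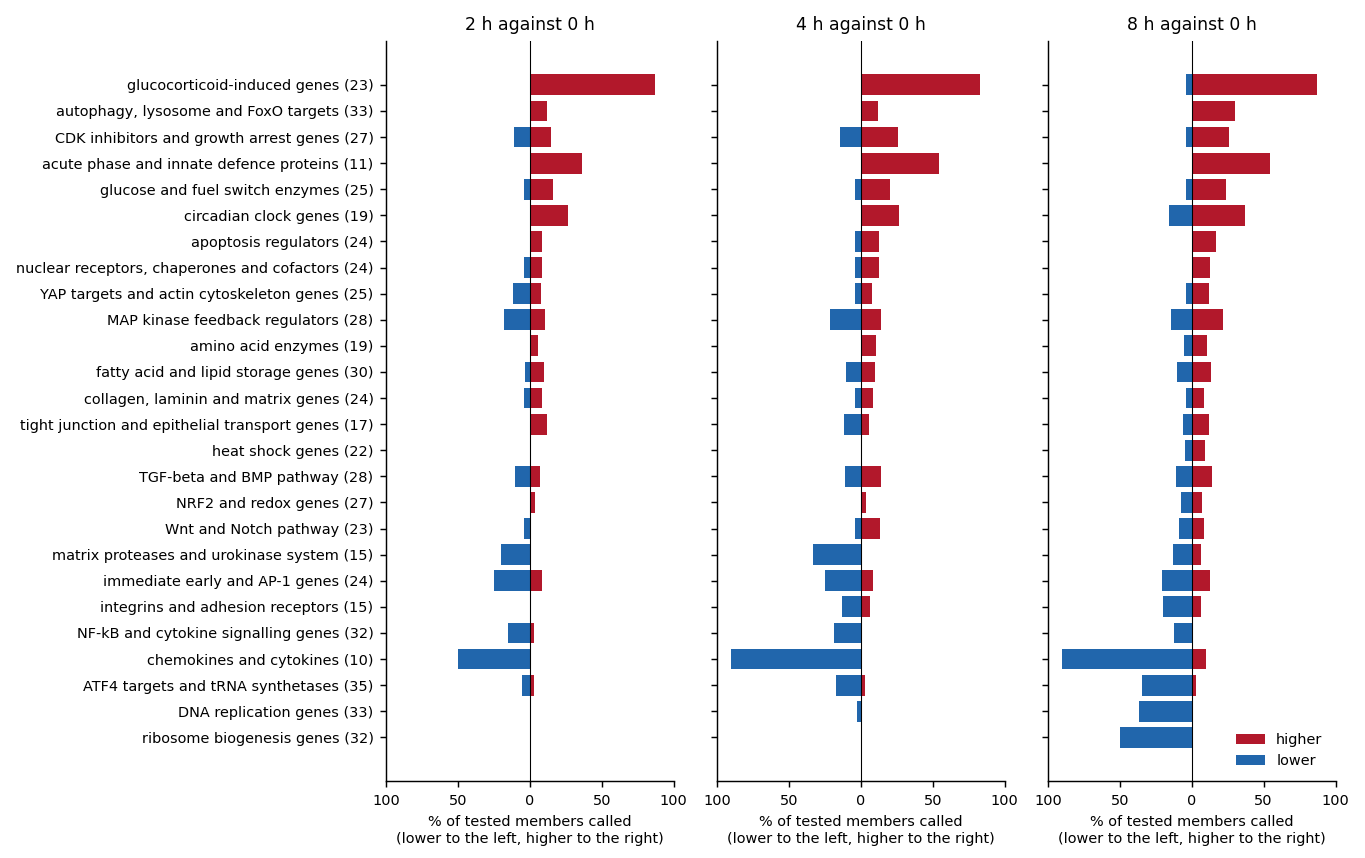
Percent of the tested members of each gene list called lower (blue, to the left) or higher (red, to the right) at 2, 4 and 8 h against 0 h in 3134 cells, with the number tested in brackets; lists with at least 3 members called at 8 h are shown. Ribosome biogenesis (0, 0 and 16 of 32 lower) and DNA replication genes (0, 1 and 12 of 33 lower) have their calls at 8 h, while glucocorticoid-induced genes have 20, 19 and 20 of 23 higher.

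Several lists had 0 called members at 8 h: 19 interferon and antigen presentation genes, 13 of prostaglandin and eicosanoid synthesis, 32 of mitochondrial respiration, 14 housekeeping genes and 7 of milk proteins and lactation. Their medians lay between -0.09 and 0.25. Over all tested genes 4.3% were called higher and 3.6% lower, so 0 calls in lists this short do not show that the functions were unchanged. Other lists held a few calls each. Counts of 1 or 2 there are not far from those shares and are not read as a result of the list. Glucose and fuel switch enzymes gave 6 higher and 1 lower of 25, MAP kinase feedback regulators 6 and 4 of 28, and immediate early and AP-1 genes 3 and 5 of 24. Apoptosis regulators gave 4 higher and 0 lower of 24, and nuclear receptors with their chaperones and cofactors 3 and 0 of 24. YAP targets and actin genes gave 3 higher and 1 lower of 25, and tight junction and epithelial transport genes 2 and 1 of 17. Collagens and other matrix genes gave 2 and 1 of 24, integrins 1 and 3 of 15, and matrix proteases 1 and 2 of 15. NRF2 and redox genes gave 2 and 2 of 27, Wnt and Notch genes 2 and 2 of 23, and genes of protein folding in the endoplasmic reticulum 1 and 1 of 23. The tested markers, 8 luminal, 2 basal, 15 mesenchymal, 2 immune and 2 endothelial, gave 0 calls. With so few tested, this does not show that such markers were unchanged. Of the 8 luminal ones, 6 lay below log2 6.59 at 0 h and were tested because another group reached it. The 5 adipocyte markers gave 1 higher and 1 lower, and the 9 corticotroph markers 2 higher, all 9 below log2 6.59 at 0 h. Of 22 heat shock genes 2 were higher and 1 lower, and of 23 genes of cholesterol synthesis 2 were lower, with medians of -0.16 for both. Cryab, a small heat shock protein gene and a late riser, went from 10.66 and 9.82 to 11.28 and 10.91 (0.85 ± 0.157; adjusted p = 0.265 without the block). Aldh3a1, an aldehyde dehydrogenase gene on none of the lists, was among the largest late falls, at 10.03 and 10.24 at 0 h, 9.91 and 9.90 at 2 h, 9.80 and 9.43 at 4 h, then 9.10 and 8.34 at 8 h (-1.41 ± 0.221, adjusted p = 0.00207).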

How the data were processed

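RNA of 3134 and AtT-20 cells was measured on 15 one-colour Affymetrix mouse exon arrays. The deposited values are log2 levels per exon probeset, for which the submitters' processing notes name RMA and Affymetrix Expression Console. No versions are named in the sources used here. The deposited columns differed in level, with medians of 7.83 to 8.14 in set 1 and of 6.76 to 7.20 in set 2 of 3134, so the arrays were quantile normalized. Of 228090 probesets, 207232 had 1 gene symbol in the platform annotation and were used, 3882 had several and 16976 none. Of 16207 symbols, 14055 were current in RefSeq, 2111 took a current symbol through a synonym and 41 stayed unchanged. A gene's value was the median over at least 3 probesets (median 13 in tested genes). Genes were tested where the highest group mean over all 8 groups reached the 40th percentile of all values.

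Group means and the serial set within each line, as a block, were fitted to all 15 arrays with limma 3.58.1 (lmFit, eBayes, 2-sided moderated test, 5 residual degrees of freedom) in R 4.3.3 with the package data.table (version 1.17.8). The Benjamini-Hochberg adjustment ran over all 9919 genes, calls were made at an adjusted p of 0.05, and all adjusted p-values come from limma. The sets pair the arrays: across genes, deviations from the group means correlated at 0.491 to 0.569 over the 6 pairs of times within a set of 3134, and the serial numbers in the titles give the sets. The highest correlation between any 2 arrays was 0.985, and none was taken as a repeat. The fit was tested on simulated data with known answers. That test required recovery of log2 changes of 2 and set no requirement for smaller ones, such as the late changes above.

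The comparison, the 34 pathway and 7 marker lists and the late rule were chosen with earlier results of these data known. Lists are described by counts and medians, and some genes stand on more than 1 list. Named genes are the 15 largest changes each way, the 15 largest late changes each way, up to 6 members per list with the smallest p, and Nr3c1, Fkbp5, Per1 and Tsc22d3. Outside this rule, Arntl, Atf4, C3, Ccnd2, Cdh1, Epcam, Il34, Krt8, Vim, Mt1, Myc, Nop2, Per3 and Pik3ip1 were chosen after their values were seen. So were Gadd45a, Gper1, Ogn and 4930486L24Rik in the closing section, and the promoters printed. Sequences are from RefSeq, GRCm38.p6, matched by symbol. Alternatives were no block, median-centred arrays, the deposited scale, the 3134 arrays alone, other filters, the mean over probesets, at least 6 probesets, a variance prior with trend and robust settings, and leaving out each array of 3134.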

Additional observations from a re-analysis of the deposited data

Results flagged for a closer look

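Responses differed between times in direct tests. Set against 2 h, 114 genes stood higher and 84 lower at 8 h, and set against 4 h, 7 stood higher and 4 lower, and 26 late risers and 49 late fallers differed from the mean of 2 h and 4 h. In 8 genes the 8 h level differed from that at 2 h and from that at 4 h. Against the mean of those times, Nr1d1 was at -1.57 and Rrp15 at -0.87, Crebrf at 0.89 and Ypel3 at 0.85, as described above. Ogn, a small proteoglycan gene of connective tissue, was at 1.08. Its levels were 8.90 and 8.35 at 0 h, 9.17 and 8.51 at 2 h, 9.48 and 8.98 at 4 h, then 10.21 and 10.02 at 8 h. The unnamed transcript 4930486L24Rik was at 1.19.

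The remaining 2 had fallen early and returned. Gadd45a, a gene of growth arrest and DNA damage, was at 0.90 against the mean of 2 h and 4 h. Its levels were 10.22 and 10.33 at 0 h, 9.01 and 9.32 at 2 h, 8.81 and 9.20 at 4 h, then 9.84 and 10.13 at 8 h. The membrane estrogen receptor gene Gper1, also at 0.90, went from 9.23 and 8.84 at 0 h to 7.96 and 7.55 at 2 h and 9.02 and 8.48 at 8 h. Neither was called at 8 h against 0 h (adjusted p = 0.291 for Gadd45a and 0.228 for Gper1, limma).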

How the results depend on the processing

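Counts of calls depended on the processing. Without the replicate block, 163 genes were higher and 54 lower at 8 h than at 0 h, 6 and 3 than at 2 h, and 0 and 0 than at 4 h, with 0 late risers and 2 late fallers; 3 ribosome biogenesis, 0 DNA replication and 4 ATF4 list members were lower and 4 autophagy members higher. On the deposited scale the counts, in the same order, were 126 and 1037, 29 and 231, 0 and 1, with 1 late riser, 22 DNA replication members lower and 2 autophagy members higher. With no filter they were 266 and 142, 44 and 21, 0 and 1, 3 and 2 late genes, and 8, 3, 6 and 4 for the lists. With the mean over probesets they were 738 and 932, 371 and 474, 66 and 74, 97 and 213, with 20 DNA replication and 20 ATF4 list members lower. With 3134 alone, 190 and 167 genes differed from 2 h, 13 and 11 from 4 h, and 74 were late fallers. A filter at the 60th percentile gave 172 and 161, 28 and 23, and 42 late risers. Median-centred arrays gave 172 lower than at 2 h and 0 higher than at 4 h, and at least 6 probesets gave 7 lower than at 4 h. The trend and robust settings gave 158 lower than at 2 h, 23 lower than at 4 h, and 42 and 88 late genes.

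Leaving out each array of 3134 in turn gave 186 to 401 higher and 86 to 323 lower genes at 8 h against 0 h, 15 to 90 and 5 to 75 against 2 h, and 0 and 0 to 3 against 4 h. Late risers ran from 2 to 13 and late fallers from 3 to 23. Lower members ran from 3 to 16 for ribosome biogenesis, 0 to 10 for DNA replication and 3 to 11 for the ATF4 list, and higher autophagy members from 3 to 10. Where a time was left with 1 array, its spread was taken to be that of the other groups. Of 1890 values of the 113 named genes under these alternatives, 1629 kept their direction and side of the threshold, 249 lost the call, 5 gained one and 7 turned sign. The last were all of markers not called at 8 h: Krt8 was at 0.0018 with median-centred arrays, 0.023 with the mean over probesets and 0.18 without 8 h replicate 1. Vim was at -0.031, -0.022 and, on the deposited scale, -0.34, and Gata3 was at -0.23 on the deposited scale. The causes were not tested. With 2 arrays per time, precision is limited by their number, and levels near background may hide the full size of changes there.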

Other observations

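Lipid genes of fat cells moved in opposite directions. Fabp4, a fatty acid binding protein, was at 6.08 and 6.25 at 0 h, 7.68 and 8.15 at 2 h, 8.12 and 7.77 at 4 h, then 8.59 and 7.92 at 8 h (2.09 ± 0.221, adjusted p = 8.86e-05). The lipid droplet coat gene Plin4 went from 8.94 and 8.75 to 10.14 and 10.20 (1.33 ± 0.182). Pparg, the usual driver of both in fat cells, was lower at 8 h, as given above, and the elongase gene Elovl6 went from 10.98 and 11.36 to 10.28 and 10.40 (-0.83 ± 0.136, a call lost without the block, adjusted p = 0.108). Of 30 tested genes of fatty acid handling and lipid storage, 4 were higher and 3 lower.

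Of 28 tested genes of the TGF-beta and BMP pathway, 4 were higher and 3 lower at 8 h, with a median of 0.02, and without the block 0 were higher and 1 lower. Id1 went from 7.26 and 7.33 to 8.26 and 8.43 (1.05 ± 0.195) and had reached 8.03 and 8.06 at 2 h, while its relative Id3 was a late riser. The TGF-beta signal carrier gene Smad3 went from 9.71 and 9.72 to 8.84 and 9.26 (-0.66 ± 0.138), and the inhibitor gene Smad7 from 8.03 and 8.23 to 7.35 and 7.48 (-0.71 ± 0.134). The calls of Id1 and Smad3 were lost without the block (adjusted p = 0.317 and 0.201). The basement membrane collagen genes Col4a1 and Col4a2, which share a promoter region, rose by 0.80 ± 0.15 and 0.97 ± 0.176, and neither call held without the block (adjusted p = 0.0607 and 0.132). Among glucose enzymes, Pfkfb3, which speeds glycolysis, was higher at 8 h than at 0 h but lower than at 2 h. It was at 6.18 and 6.13 at 0 h, 8.48 and 8.72 at 2 h, 8.17 and 8.40 at 4 h, then 7.49 and 6.92 at 8 h (adjusted p = 0.00445 against 2 h).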
